A study of Mus musculus with 12 samples.

Results

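The pyruvate dehydrogenase system was followed in mouse adipose tissue through 10 genes: the 4 kinases Pdk1, Pdk2, Pdk3 and Pdk4, the phosphatase catalytic subunits Pdp1 and Pdp2, and the complex subunits Pdha1, Pdhb, Dlat and Pdhx. They were found by symbol among the 53431 genes of the deposited count table, and all 10 passed the filter on low counts that left 15968 genes for testing. The other genes were taken for their role in the system, and Pdk4 was chosen by its CPM in treated libraries, which lay below WT, so its values in contrasts with treated libraries are a description without a test. Messenger RNA was sequenced from 12 libraries in 3 groups of 4. The treated group carried the label Bbs2-/- and received Genz-667161, an inhibitor of glucosylceramide synthase (the enzyme that makes the precursor of most glycosphingolipids), at 0.033% of feed weight from the age of 2 months until tissue was taken. The untreated group was labelled Bbs2-/- and had no inhibitor. The remaining group was labelled WT and also had none. Every group had the background C57BL/6 x 129/SvJ, and tissue was taken at 6 months. Bbs2 encodes a subunit of the BBSome, which sorts membrane proteins of primary cilia. The labels give neither the fat depot nor the sex. Nor do they tie each library to its own animal, and a p-value here then reflects library-to-library spread only, which may be technical.

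Pyruvate dehydrogenase is the mitochondrial complex that turns pyruvate, the end product of glycolysis, into acetyl-CoA, and so commits carbon from glucose to oxidation or to fatty acid synthesis. The kinases phosphorylate the E1 alpha subunit and switch the complex off, and the phosphatases remove the phosphate and switch it on again. Pdk4 is the isoform best known for rising in fasting and falling with insulin, and in fat cells the complex supplies acetyl-CoA for lipid synthesis, while Pdk4 in rat fat is known to spare pyruvate for making the glycerol of triglycerides.

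Promoter sequences of Pdk4, of Pdk2 (the other abundant kinase, which had another pattern) and of Pdha1 (the subunit that the kinases act on) are shown so that the sequence before their starts can be compared. They are from RefSeq on GRCm38.p6, which matched 9 of the 10 genes (Pdp1 was not matched), and are written 5′ to 3′ on the gene's own strand with the start site just after the last base, or, for Pdk4, 31 bases after it, since the GENCODE gene begins that much further upstream. Capitals mark matches to the motifs searched on both strands: the FoxO motif GTAAACA, the nuclear receptor motif AAGGTCA, the glucocorticoid receptor motif TGTTCT, the hypoxia inducible factor core ACGTG, the CCAAT box, the SP1 box GGGCGG and the TATA box TATAAA. Pdk4 is at chr6:5496310-5496528, Pdk2 at chr11:95041372-95041621 and Pdha1 at chrX:160138431-160138680, all on the minus strand.
Pdk4: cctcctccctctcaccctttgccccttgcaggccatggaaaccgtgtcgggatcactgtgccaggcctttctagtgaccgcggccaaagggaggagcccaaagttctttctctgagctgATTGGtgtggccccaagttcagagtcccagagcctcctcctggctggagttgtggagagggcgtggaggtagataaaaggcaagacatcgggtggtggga
Pdk2: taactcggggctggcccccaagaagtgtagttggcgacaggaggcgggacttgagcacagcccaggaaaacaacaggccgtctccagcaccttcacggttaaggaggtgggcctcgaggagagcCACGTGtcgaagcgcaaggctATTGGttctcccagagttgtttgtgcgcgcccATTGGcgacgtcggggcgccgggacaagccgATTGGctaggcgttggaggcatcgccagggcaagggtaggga
Pdha1: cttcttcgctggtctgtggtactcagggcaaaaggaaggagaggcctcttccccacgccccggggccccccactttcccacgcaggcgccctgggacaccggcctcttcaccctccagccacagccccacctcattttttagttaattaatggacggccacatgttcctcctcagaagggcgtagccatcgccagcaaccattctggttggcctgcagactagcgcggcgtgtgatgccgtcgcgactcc

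The Pdk4 window held 1 CCAAT match, on the opposite strand (printed as ATTGG), 131 to 127 bases before the RefSeq start. The Pdk2 window held 3 CCAAT matches, all on the opposite strand, and the palindrome CACGTG, in which an ACGTG match on one strand overlaps one on the other. The Pdha1 window held no match to any of the 7 motifs. Among 32817 mouse windows of 250 bases, 33.8% held the CCAAT box, 16.6% the hypoxia core, 32.7% the SP1 box, 16.1% the glucocorticoid receptor motif, 12.4% the TATA box, 4.08% the nuclear receptor motif and 3.16% the FoxO motif. A match is a run of letters in a short window and no measurement of binding.

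Bbs2 itself was measured as a check of the labels. It lay at 53.7 to 65.4 CPM (TMM-scaled counts per 1000000) in treated libraries, 53.7 to 70.6 CPM in untreated Bbs2-/- libraries and 12.1 to 12.7 CPM in WT libraries, so libraries labelled Bbs2-/- had more Bbs2 reads than those labelled WT. Directions in what follows therefore rest on the labels, which Bbs2 reads do not bear out as loss of the transcript. Library totals ran from 16317865 to 20224200 counts. Adipocyte markers were present in every library (23 genes, summed level 69379 to 99736 CPM in treated, 35419 to 43409 in untreated and 66168 to 98946 in WT libraries), while the 20 macrophage markers summed to 1156 to 2824 CPM in treated, 10325 to 14404 in untreated and 1223 to 4927 in WT libraries. Foxj1, a marker of ciliated epithelium, had 154 and 140 counts in treated 1 and treated 3, 48 and 164 in WT 1 and WT 4, and at most 2 in the others, and 10 epididymis markers summed to 1202 CPM in WT 1, the highest library, and to at most 0.517 CPM in treated and 0.499 CPM in untreated libraries. The labels name WT 2 and WT 3 in another style than the other 10 libraries. Counts of called genes that move by over 1.5 times without WT 2 and WT 3, or without the libraries with Foxj1 counts, are given with the value without them.

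Transcripts of the pyruvate dehydrogenase system were lower in untreated Bbs2-/- than in WT tissue. With a threshold of 0.05 on the adjusted p of edgeR, 8 of the 10 genes fell and 0 rose, and 7 of the 8 were genes other than Pdk4. Over all tested genes 19.7% were called lower and 39.2% were called in either direction. The median log2 fold change of the 10 genes was -0.53, against -0.02 over all tested genes. The count of 8 became 7 without the libraries with Foxj1 counts, where 2993 of 16260 tested genes were called lower. It became 5 without untreated Bbs2-/- 4, where 2486 of 16297 were called lower. It was also 5 when libraries were scaled by size alone. That scaling called 2005 of 15968 genes lower and moved the median of all genes to 0.164. Without WT 2 and WT 3 the count became 2 (Pdk3 and Pdk4). There 3417 of 16877 tested genes were called, 1693 of them lower. A count of 2, with the chosen Pdk4 in it, is near the share called in either direction and is no result about the 10 genes.

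With the inhibitor most of these genes were higher than without it. Pdk4, chosen for its treated level below WT, was not, which is a description only. In treated against untreated Bbs2-/- libraries 7 of the 9 genes other than Pdk4 rose and 0 fell, where 18.5% of all tested genes were called higher and 37.2% in either direction. Their median log2 fold change was 0.54, against 0.03 over all tested genes. In treated Bbs2-/- against WT, 0 of the 9 were called by edgeR, by DESeq2 or at an unadjusted p under 0.05, where edgeR called 0.257% of all tested genes in either direction and 0.0814% lower. Their log2 fold changes there lay between -0.17 and 0.20. The contrasts share libraries (untreated Bbs2-/- or WT), so the opposite directions are not separate observations. Adipocyte markers were lower and macrophage markers higher in untreated libraries, as given above, and their part in these results was not tested.

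**Figure D1:**
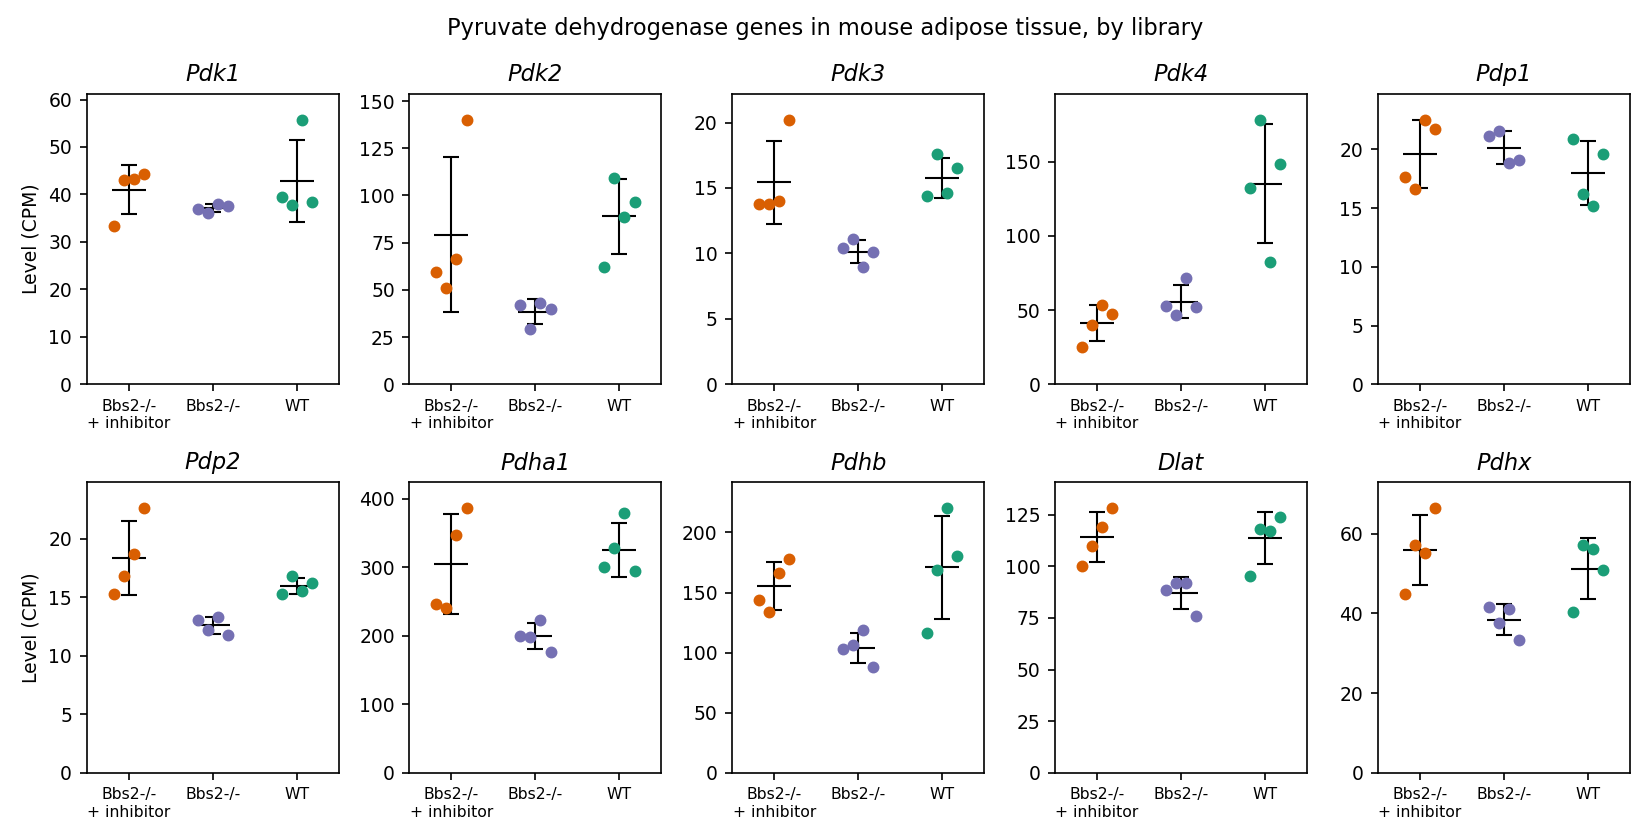
Level of each of the 10 genes in CPM (linear axes from 0), with 1 point per library, in treated Bbs2-/-, untreated Bbs2-/- and WT adipose tissue from left to right; the line and bar give the mean and SD of 4 libraries. Pdk4, chosen for its treated level below WT, has its lowest mean in the treated group, 41.2 CPM. Pdk2, Pdk3, Pdp2 and the subunits have their lowest mean in the untreated group.

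Pdk4 had 24.9, 39.6, 53.4 and 47 CPM in the 4 treated libraries, 52.7, 46.5, 71.5 and 52.2 CPM in the untreated Bbs2-/- libraries and 132, 178, 82 and 148 CPM in the WT libraries. Every library labelled Bbs2-/-, treated or not, lay below the lowest WT library, WT 3, and treated and untreated libraries overlapped. Pdk4 (ENSMUSG00000019577.6, chr6:5483351-5496309, minus strand, mm10) thus averaged 41.2 CPM in treated, 55.7 ± 10.9 in untreated and 135 ± 40.1 in WT libraries (SD, n = 4). As a description of the values that chose it, the treated level was 30.6% of WT (log2 fold change -1.71, SE 0.26) and 74% of untreated (log2 fold change -0.43, SE 0.26). The untreated contrast with WT, which was not the one used for the choice but shares its WT libraries, gave a log2 fold change of -1.28 (SE 0.26, edgeR adjusted p = 0.00279). It was called in all 23 alternatives run, with values of -1.45 to -1.09 and adjusted p of 1.2e-05 to 0.0125 over them. Without WT 2 and WT 3 it was -1.31, and without the libraries with Foxj1 counts -1.23. Choosing Pdk4 for treated values below WT favoured high WT values, which tilt this contrast towards a fall too. The adjusted p and the alternatives, which reuse these libraries, are therefore no independent support.

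Pdk2, a kinase found in most tissues, had 59.5, 51, 66.2 and 140 CPM in treated, 42, 29.1, 43.1 and 39.9 in untreated and 62, 109, 88.8 and 96.5 in WT libraries. The untreated libraries were lower than every library of both other groups, and treated 4 was higher than every other library. Pdk2 (ENSMUSG00000038967.13, chr11:95026258-95041354, minus strand) fell in untreated Bbs2-/- against WT, with a log2 fold change of -1.21 (SE 0.30, edgeR adjusted p = 0.00784), and rose in treated against untreated, with 1.04 (SE 0.30, edgeR adjusted p = 0.0172). Without treated 4 the rise was 0.61 (edgeR adjusted p = 0.0314), without untreated 2 it was 0.90 and was not called (edgeR adjusted p = 0.058), and the fall was not called without WT 2 and WT 3 (-1.03, edgeR adjusted p = 0.0768). Treated against WT, the difference was -0.17, with a 95% interval of -0.81 to 0.47, and it was -0.59 (edgeR adjusted p = 0.273) without treated 4.

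Pdk3, a kinase whose human form is little inhibited by pyruvate, had 13.8, 13.8, 14 and 20.2 CPM in treated, 10.4, 11.1, 8.98 and 10.1 in untreated and 14.4, 17.6, 14.6 and 16.5 in WT libraries. All 4 untreated libraries lay below the other 8. It fell in untreated Bbs2-/- against WT (log2 fold change -0.64, SE 0.14, edgeR adjusted p = 0.0042) and rose in treated against untreated (0.61, SE 0.14, edgeR adjusted p = 0.00564), and both calls held in every alternative run. Treated against WT, the difference was -0.03 (95% interval -0.34 to 0.28).

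Pdk1, the kinase that hypoxia inducible factor is known to raise, had 33.4, 43, 43.2 and 44.4 CPM in treated, 36.9, 36.1, 37.9 and 37.5 in untreated and 39.5, 37.7, 55.7 and 38.5 in WT libraries. The groups overlapped, and no contrast was called. Its log2 fold changes were -0.21 (95% interval -0.49 to 0.08) in untreated against WT, 0.14 (-0.14 to 0.43) in treated against untreated and -0.06 (-0.35 to 0.22) in treated against WT.

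**Figure D2:**
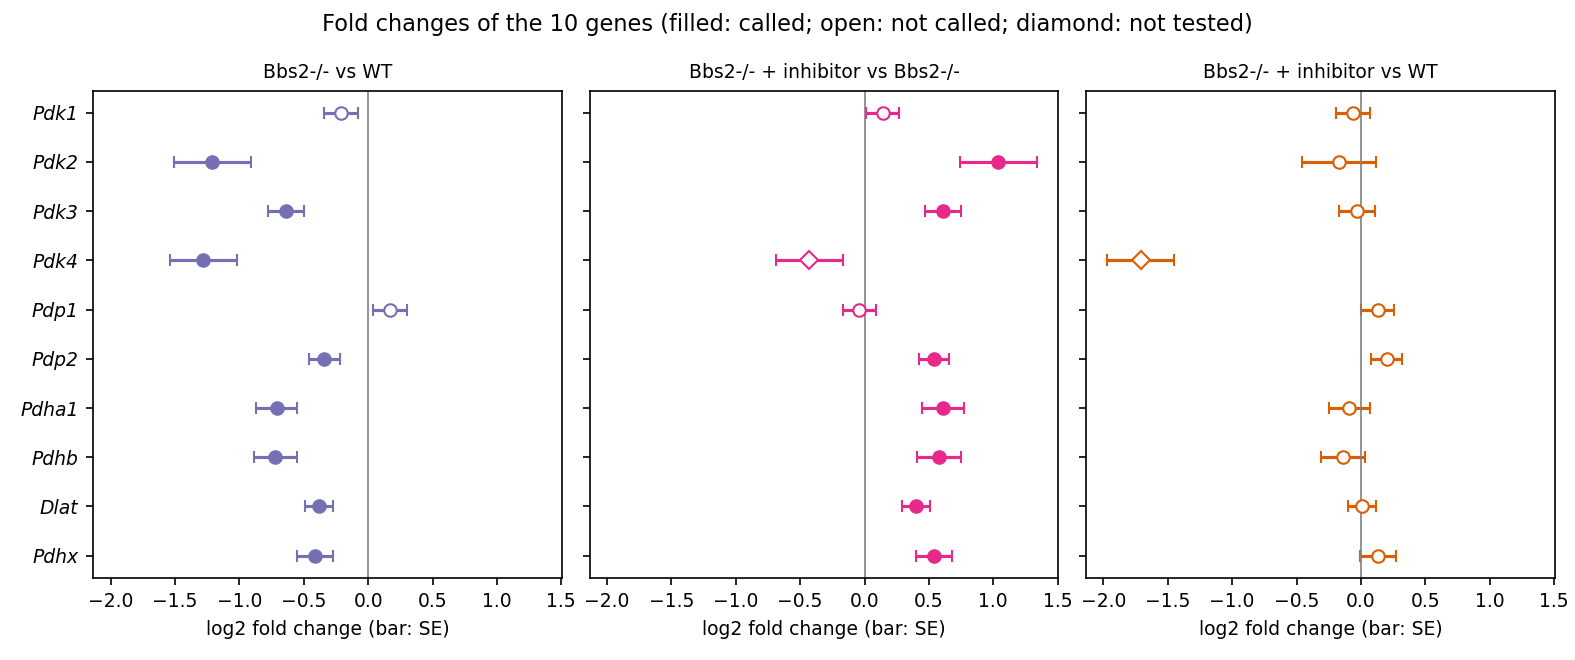
Log2 fold change (x axis) of the 10 genes in untreated Bbs2-/- against WT, treated against untreated Bbs2-/- and treated Bbs2-/- against WT; bars are standard errors, filled points are called at an edgeR adjusted p under 0.05, open points are not, and diamonds mark Pdk4 where it was not tested. Pdk4 is the lowest point of the last panel at -1.71, the contrast that chose it, where the other 9 genes lie between -0.17 and 0.20.

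The phosphatases moved unlike each other. Pdp1, the calcium-stimulated catalytic subunit, had 17.6, 16.6, 22.5 and 21.7 CPM in treated, 21.1, 21.6, 18.8 and 19.1 in untreated and 20.9, 16.2, 15.2 and 19.6 in WT libraries. Its groups overlapped in every contrast, with log2 fold changes of 0.17 (95% interval -0.12 to 0.46), -0.04 (-0.33 to 0.25) and 0.13 (-0.16 to 0.42) in untreated against WT, treated against untreated and treated against WT. Pdp2, the isoform that calcium does not stimulate and that is known to fall with starvation in rat tissues, had 15.3, 16.8, 18.7 and 22.6 CPM in treated, 13.1, 12.2, 13.3 and 11.8 in untreated and 15.3, 16.8, 15.5 and 16.2 in WT libraries. The untreated libraries lay below all others. Pdp2 rose in treated against untreated (log2 fold change 0.54, SE 0.12, edgeR adjusted p = 0.00399). Its fall in untreated against WT (-0.34, SE 0.12, edgeR adjusted p = 0.0383) was lost when any library of these groups other than WT 1 was left out (edgeR adjusted p = 0.0615 to 0.126), when libraries were scaled by size alone (-0.16, edgeR adjusted p = 0.27) and without the libraries with Foxj1 counts (-0.37, edgeR adjusted p = 0.0751). Without a filter on low counts its edgeR adjusted p was 0.11.

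All 4 subunit genes fell in untreated Bbs2-/- against WT and rose in treated against untreated. Pdha1 encodes the E1 alpha subunit, which carries the sites that the kinases phosphorylate. It had 246, 241, 347 and 386 CPM in treated, 200, 198, 223 and 177 in untreated and 300, 328, 380 and 294 in WT libraries, and the untreated libraries did not overlap the others. Pdha1 fell by 0.71 on the log2 scale in untreated against WT (SE 0.16, edgeR adjusted p = 0.00435) and rose by 0.61 in treated against untreated (SE 0.16, edgeR adjusted p = 0.00982). Pdhb, the E1 beta subunit, had 144, 134, 166 and 178 CPM in treated, 103, 106, 119 and 88.1 in untreated and 116, 169, 220 and 180 in WT libraries. WT 1 lay within the untreated range and the other WT libraries above it. Pdhb fell in untreated against WT (-0.72, SE 0.17, edgeR adjusted p = 0.00611) and rose in treated against untreated (0.58, SE 0.17, edgeR adjusted p = 0.0192). That rise was not called without untreated 2 (edgeR adjusted p = 0.052), untreated 4 (0.0685) or treated 4 (0.0568).

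Dlat, the E2 acetyltransferase that forms the core of the complex, had 100, 110, 119 and 128 CPM in treated, 88.5, 91.9, 91.7 and 75.7 in untreated and 95.1, 118, 117 and 124 in WT libraries. The untreated libraries were the lowest 4, by a small gap to WT 1. Dlat fell in untreated against WT (-0.38, SE 0.11, edgeR adjusted p = 0.0152) and rose in treated against untreated (0.40, SE 0.11, edgeR adjusted p = 0.0133). Neither call held without untreated 4 (-0.29, edgeR adjusted p = 0.0642, and 0.31, edgeR adjusted p = 0.0516) or with scaling by library size alone (-0.20 and 0.27). Pdhx, the binding protein that tethers the E3 enzyme to that core, had 44.9, 57.1, 55.1 and 66.3 CPM in treated, 41.5, 37.5, 41.2 and 33.3 in untreated and 40.4, 57.1, 56.1 and 50.9 in WT libraries. WT 1 again lay within the untreated range. Pdhx rose in treated against untreated (0.54, SE 0.14, edgeR adjusted p = 0.00906). Its fall in untreated against WT (-0.41, SE 0.14, edgeR adjusted p = 0.0313) was lost without any one of WT 2, WT 3, WT 4, untreated 2, untreated 3 and untreated 4 (edgeR adjusted p = 0.0576 to 0.122). It was also lost with scaling by library size alone (-0.22, edgeR adjusted p = 0.128) and without a filter on low counts (-0.39, edgeR adjusted p = 0.0594). The falls of Pdha1 and Pdhb were also lost without WT 2 and WT 3 (-0.56 and -0.50, edgeR adjusted p = 0.0631 and 0.0811), as were those of Dlat (-0.32) and Pdhx (-0.24).

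Treated against WT, the subunit genes differed by -0.09 (Pdha1, 95% interval -0.44 to 0.25), -0.14 (Pdhb, -0.51 to 0.23), 0.01 (Dlat, -0.22 to 0.25) and 0.13 (Pdhx, -0.17 to 0.43) on the log2 scale. Each interval spans 0, and each is too wide to show that the levels are equal.

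Levels of different genes were compared on the deposited FPKM scale, which divides by gene length. The kinase genes together summed to 68 ± 23.2 FPKM in treated, 47.4 ± 5.62 in untreated and 104 ± 18.5 in WT libraries (SD, n = 4). Pdk4 made up 15.3, 23.2, 25.7 and 14.4% of that sum in treated libraries, 33, 34.7, 40 and 33.5% in untreated and 47.3, 44.4, 29.2 and 42.2% in WT libraries. The treated shares lay below all 8 others, and the untreated shares lay within the WT range. Pdk2 made up 54.7 ± 8.89% in treated, 37.9 ± 3.14% in untreated and 42.1 ± 5.87% in WT libraries. The Pdk4 to Pdk2 ratio of FPKM was 0.377 ± 0.156 in treated, 0.938 ± 0.131 in untreated and 1 ± 0.317 in WT libraries, with treated libraries at 0.217 to 0.521 below the lowest untreated and WT values, 0.81 and 0.596. These shares contain the values that chose Pdk4 and are given without a test. On another length scale, the TMM-scaled CPM per kilobase of merged exons, the Pdk4 shares were 25.1% in treated, 42.9% in untreated and 48.5% in WT libraries.

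**Figure D3:**
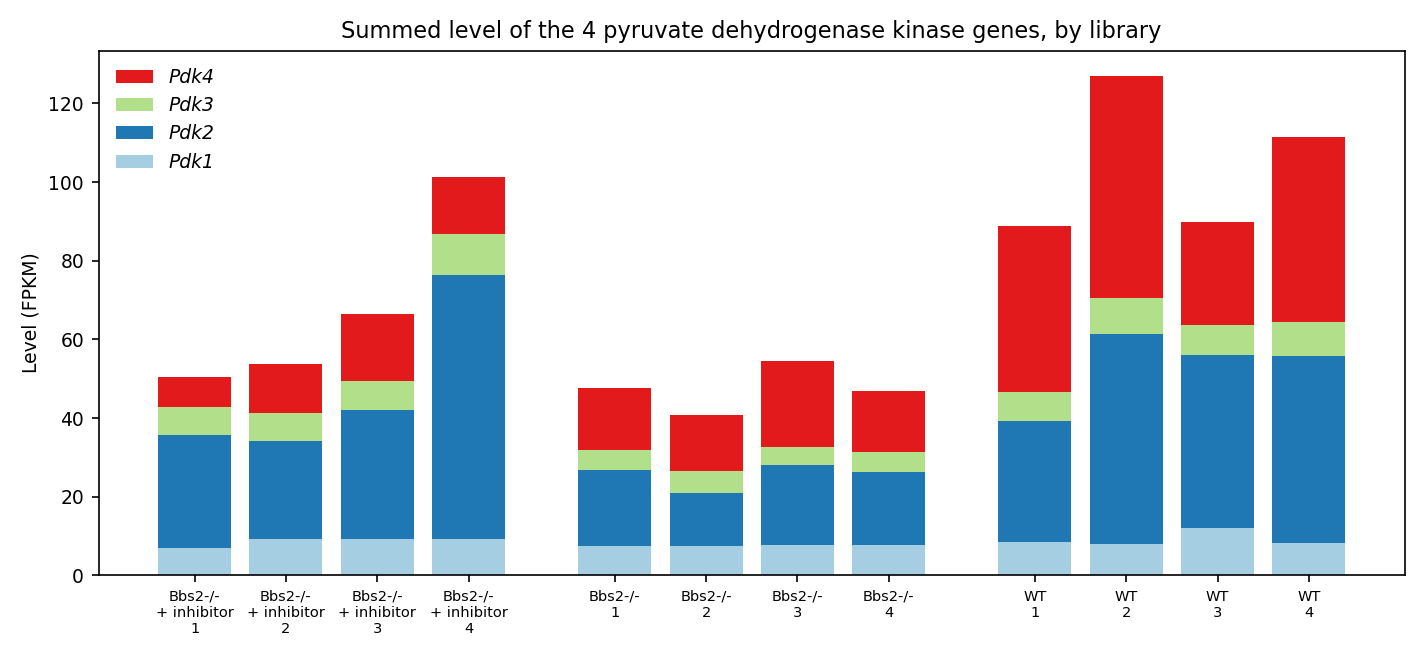
Stacked bars of the 4 kinase genes in FPKM (linear axis from 0), with 1 bar per library in treated Bbs2-/-, untreated Bbs2-/- and WT from left to right. The Pdk4 segment, whose treated values chose the gene, is small in all 4 treated bars, at 14.4 to 25.7% of the bar. The height of treated 4, 101 FPKM, comes mostly from Pdk2.

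Pdk4 and Pdk2 were also set against a subunit of the enzyme they act on. The ratio of Pdk4 to Pdha1 FPKM was 0.111 ± 0.0237 in treated, 0.227 ± 0.0303 in untreated and 0.347 ± 0.119 in WT libraries, whereas the ratio of Pdk2 to Pdha1 was 0.319 ± 0.0976 in treated, 0.246 ± 0.0428 in untreated and 0.348 ± 0.0812 in WT libraries. The treated range of the Pdk4 ratio lay below both other groups, and the ranges of the Pdk2 ratio overlapped. The Pdk4 ratio contains the values that chose Pdk4 and is given without a test. Among the subunit genes, Pdhb to Pdha1 was 0.979 ± 0.115 in treated, 0.98 ± 0.034 in untreated and 0.985 ± 0.187 in WT libraries. Dlat to Pdha1 was 0.272 ± 0.041 in treated, 0.308 ± 0.0162 in untreated and 0.248 ± 0.0363 in WT libraries, so Dlat was higher relative to Pdha1 in untreated libraries (0.29 to 0.328) than in WT libraries (0.217 to 0.297) on average, with ranges that overlapped. Of the phosphatase genes, Pdp1 to Pdp2 was 2.11 ± 0.255 in treated, 3.14 ± 0.236 in untreated and 2.13 ± 0.405 in WT libraries, with no untreated library (2.86 to 3.44) inside the range of another group.

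Ranked within a group, Pdha1 and Pdhb were the highest of the 10 genes everywhere and overlapped each other, at 117 ± 27.8 and 112 ± 14 FPKM in treated, 73.8 ± 7.4 and 72.4 ± 9.24 in untreated and 127 ± 15.5 and 125 ± 31.3 in WT libraries. Pdp2 was the lowest in each group, at 3.52 ± 0.59, 2.33 ± 0.137 and 3.11 ± 0.123 FPKM in the same order. In treated libraries Pdk4 (13 ± 3.96 FPKM) overlapped Pdk1 (8.66 ± 1.12) below it and lay below Pdhx (24.4 ± 3.76). In untreated libraries Pdk4 (16.8 ± 3.4) was not separated from Pdk2 (18 ± 2.96) or Pdhx (16.1 ± 1.6), and in WT libraries it (42.9 ± 12.6) was not separated from Pdk2 (43.9 ± 9.62) or Dlat (31.2 ± 3.39). The closeness of Pdhb to Pdha1 depends on the length scale: per kilobase of merged exons Pdhb made up 25.4% of the subunit sum in treated, 24.9% in untreated and 26.1% in WT libraries and Pdha1 50.8, 49.5 and 52.2%.

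Genes that supply or complete the complex moved with the subunits. Of 7 partners 5 fell and 0 rose in untreated Bbs2-/- against WT, and 5 rose and 0 fell in treated against untreated. The 5 were Dld, the shared E3 dehydrogenase, Mpc1 and Mpc2, which form the mitochondrial pyruvate carrier, and Lias and Lipt1, which make and transfer the lipoyl group of Dlat. The count of falls became 2 without WT 2 and WT 3, where 1693 of 16877 tested genes were called lower. With all libraries, 19.7% of all tested genes were called lower and 19.6% higher in untreated against WT. In treated against untreated 18.5% were called higher and 18.8% lower. These shares apply to the lists below too. Lias averaged 51.9 ± 4.62 CPM in treated, 34.2 ± 1.28 in untreated and 59.8 ± 7.65 in WT libraries, with log2 fold changes of -0.81 (SE 0.10, edgeR adjusted p = 0.000186) in untreated against WT and 0.60 (SE 0.10, edgeR adjusted p = 0.000833) in treated against untreated. Mpc1 averaged 267 ± 39 CPM in treated, 165 ± 8.6 in untreated and 282 ± 43.4 in WT libraries, with log2 fold changes of -0.77 and 0.69 (edgeR adjusted p = 0.00089 and 0.00164). The log2 fold changes of Dld were -0.43 and 0.38, of Mpc2 -0.59 and 0.80 and of Lipt1 -0.76 and 0.89 in the same contrasts.

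Lipt2, an octanoyltransferase of lipoyl synthesis, had log2 fold changes of 0.50 in untreated against WT and -0.48 in treated against untreated and was not called. Pdpr, the regulatory subunit of the phosphatase, was not called and ranged from 3.46 to 17.2 CPM in treated, 5.48 to 10.7 in untreated and 2.73 to 27.6 in WT libraries, the highest being WT 1. In treated Bbs2-/- against WT 0 of the 7 partners were called by edgeR or DESeq2 or had an unadjusted p under 0.05. With 0.257% of all tested genes called there by edgeR, 0 calls among 7 say nothing of the partners.

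Genes that make or use pyruvate outside the complex were mixed. Of 18 tested, 9 fell and 2 rose in untreated Bbs2-/- against WT, and 10 rose and 2 fell in treated against untreated. In untreated against WT, 6 fell and 1 rose without WT 2 and WT 3. Ldhb, the lactate dehydrogenase subunit that favours lactate use, averaged 86.6 ± 12.2 CPM in treated, 27 ± 1.52 in untreated and 90.9 ± 12.9 in WT libraries (log2 fold changes -1.75 in untreated against WT, edgeR adjusted p = 1.55e-05, and 1.68 in treated against untreated, edgeR adjusted p = 1.64e-05), while Ldha, the subunit that favours lactate release, was not called (-0.21 and 0.19). Pcx, pyruvate carboxylase, and Pck1, the enzyme of glyceroneogenesis downstream of it, had log2 fold changes of -0.97 and -3.21 in untreated against WT and of 0.98 and 2.47 in treated against untreated, all called. The genes that rose in untreated libraries were Pkm, the muscle-type pyruvate kinase that macrophages also express (0.72), and Slc16a3, a lactate exporter of glycolytic cells (1.40), and both fell in treated against untreated (-0.63 and -1.51). The alanine aminotransferase genes Gpt and Gpt2, which make pyruvate from alanine, fell in untreated against WT (-1.31 and -1.49) and rose in treated against untreated (1.29 and 1.32).

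Genes of the complexes built like pyruvate dehydrogenase fell too. All 9 tested genes of the oxoglutarate, branched-chain and oxoadipate dehydrogenases and their regulators fell in untreated against WT, with a median of -1.10, and 8 rose in treated against untreated, with a median of 0.88. Bckdha, the branched-chain E1 alpha subunit, averaged 177 ± 30.8 CPM in treated, 79 ± 8.94 in untreated and 170 ± 27.6 in WT libraries. Its log2 fold changes were -1.11 (SE 0.15) and 1.16 (SE 0.15). Bckdk, the kinase of that complex and a relative of the Pdk genes, had -0.42 (edgeR adjusted p = 0.0335) and 0.40 (edgeR adjusted p = 0.0419), so it moved with its substrate genes in both contrasts. Of 17 tricarboxylic acid cycle genes 15 fell and 13 rose in these contrasts, with medians of -0.56 and 0.47, and of 23 oxidative phosphorylation genes 21 fell and 20 rose (13 with scaling by library size alone), with medians of -0.58 and 0.48. Without WT 2 and WT 3 the counts of falls were 8 of 9, 7 of 17 and 8 of 23, where 1693 of 16877 tested genes were called lower. Counts from mitochondrial genes made up 5.51 to 8.27% of all counts in treated, 3.29 to 4.38% in untreated and 5.12 to 9.21% in WT libraries.

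**Figure D4:**
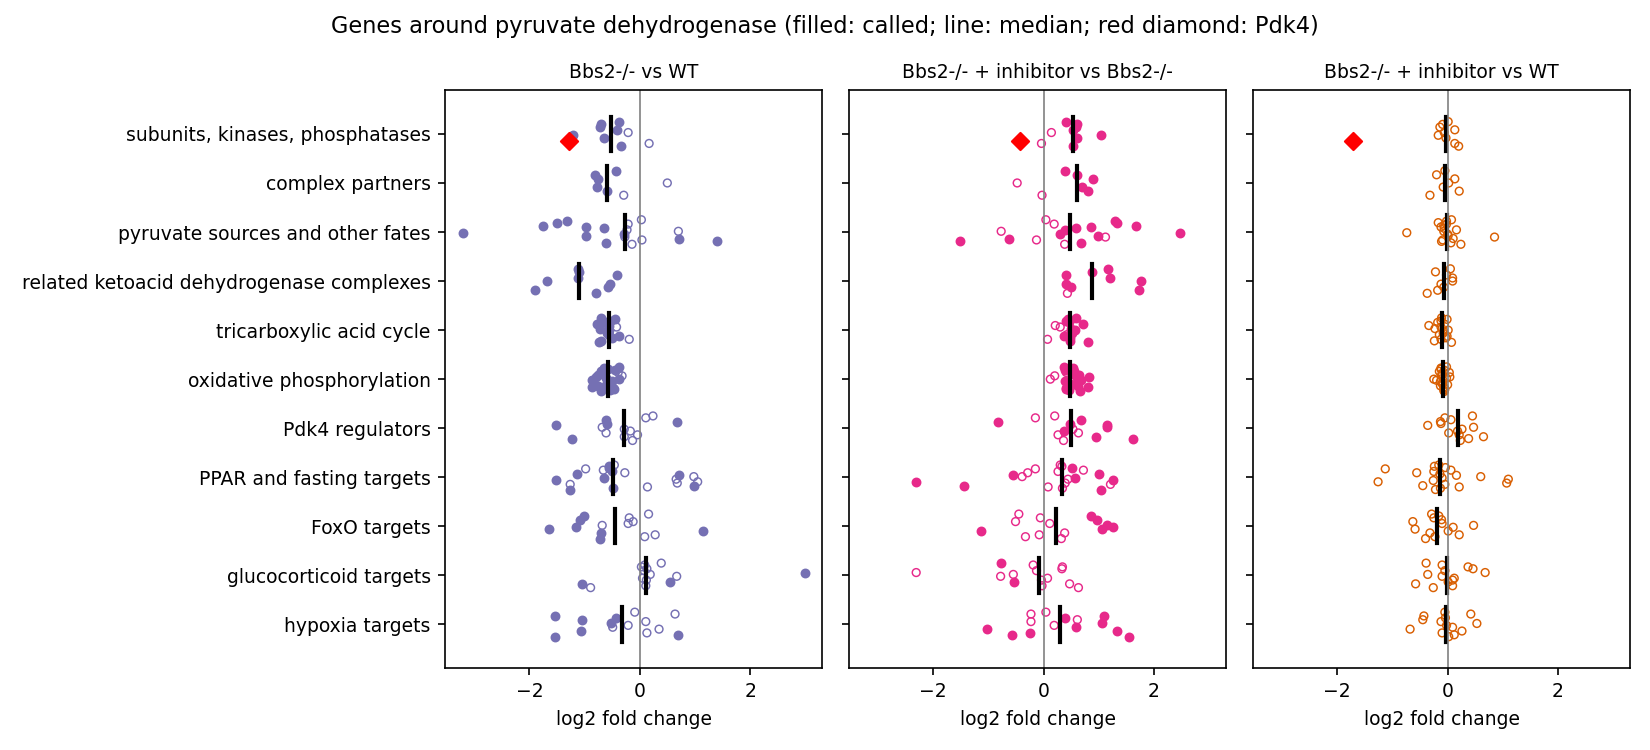
Log2 fold change (x axis) of each tested gene of the pyruvate dehydrogenase system and of 10 related lists in untreated Bbs2-/- against WT, treated against untreated Bbs2-/- and treated Bbs2-/- against WT; filled points are called at an edgeR adjusted p under 0.05, black lines are list medians, which leave out Pdk4 in the contrasts with treated libraries, and the red diamond is Pdk4. Medians of the complex, its partners and the mitochondrial lists lie left of 0 in the first panel and right of 0 in the second. Pdk4, chosen for its treated level below WT, lies left of 0 in all 3.

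Of 14 tested genes known to act upstream of Pdk4, 4 fell and 1 rose in untreated Bbs2-/- against WT, and 7 rose and 1 fell in treated against untreated. The first count is near the background of 19.7% lower and 19.6% higher over all tested genes and is no result about the list, and the background of the second contrast was 18.5% higher and 18.8% lower. Foxo1, a forkhead factor that raises Pdk4 in fasting, averaged 102 CPM in treated, 63.6 in untreated and 97.8 in WT libraries (log2 fold changes -0.62, edgeR adjusted p = 0.00271, and 0.68, edgeR adjusted p = 0.00167). Foxo3 did the opposite, at 30.7 CPM in treated, 54.2 in untreated and 33.7 in WT libraries (0.68 and -0.82, edgeR adjusted p = 0.00118 and 0.000429). Ppargc1a, a coactivator of mitochondrial genes and of Pdk4, averaged 4.56, 1.48 and 3.49 CPM in treated, untreated and WT libraries (-1.23 and 1.62, edgeR adjusted p = 0.0147 and 0.00372). Irs1 and Irs2, which carry the insulin signal that lowers Pdk4, had log2 fold changes of 1.15 each in treated against untreated (edgeR adjusted p = 0.00607 and 0.00884), and Irs1 fell in untreated against WT (-1.51, edgeR adjusted p = 0.00134). Pparg, the adipocyte nuclear receptor, rose in treated against untreated (0.94, edgeR adjusted p = 0.00542). In treated against WT, where the Pdk4 value was -1.71, 0 of the 14 were called by edgeR or DESeq2 and 2 had an unadjusted p under 0.05. With 0.257% of all tested genes called there, 0 calls in a list of this length say nothing of the list.

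Genes that share a known regulator with Pdk4 were counted in the same way. Over all tested genes 19.7% were called lower and 19.6% higher in untreated against WT. The shares in treated against untreated were 18.5% higher and 18.8% lower. Counts near these shares, such as those of the glucocorticoid targets below, are no result about a list. Of 20 genes that PPARs or fasting induce, 8 fell and 2 rose in untreated against WT, and 5 rose and 3 fell in treated against untreated. The falls were 4 without WT 2 and WT 3, and without the libraries with Foxj1 counts the rises were 4 in the first contrast and 8 in the second. Ehhadh, a peroxisomal fatty acid oxidation enzyme, averaged 45.5 ± 1.88 CPM in treated, 19.1 ± 2.48 in untreated and 54.3 ± 16.3 in WT libraries. Of 14 FoxO targets 6 fell and 1 rose, then 5 rose and 1 fell, with Pnpla2, the adipose triglyceride lipase, at -1.64 in untreated against WT. The 1 FoxO target that fell in treated against untreated became 2 without WT 2 and WT 3 and 3 without the libraries with Foxj1 counts. Of 14 glucocorticoid targets 2 rose and 1 fell, then 2 fell and 0 rose. In the first contrast 0 rose and 0 fell without WT 2 and WT 3, while without the libraries with Foxj1 counts 2 fell in it and 1 rose in the second. Of 14 hypoxia targets 6 fell and 1 rose, then 6 rose and 3 fell. Without WT 2 and WT 3 the counts of falls were 3 and then 1, and without the libraries with Foxj1 counts the second was also 1. Treated against WT, 0 genes of each of these lists were called by edgeR, with 4, 2, 3 and 3 at an unadjusted p under 0.05, and DESeq2 called 1 of the PPAR and fasting genes. The background of 0.257% applies here too.

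The genes closest to Pdk4 were looked for among 12266 protein-coding genes by Pearson correlation of log2 CPM over the 12 libraries, which share their groups and scaling. They were Ccdc3 (r = 0.90), a secreted protein of adipocytes and endothelium, Thbs1 (0.89), which encodes thrombospondin 1, Net1 (0.88), an exchange factor for RhoA, Cyp26b1 (0.87), which degrades retinoic acid, and Mtmr14 (0.86), a phosphoinositide phosphatase. Of these 5, 4 had a mean in WT above both Bbs2-/- groups by at least 0.66 on the log2 scale: Thbs1 averaged 136 CPM in treated, 157 in untreated and 436 in WT libraries, and Net1 54, 58.6 and 170 CPM. They were picked for likeness to Pdk4, itself chosen for its treated level below WT. Their high WT means thus follow from the choice and are a description only. Among the members r with Pdk4 was highest for Pdk2, at 0.42, and lowest for Pdp1, at -0.15. After each group's mean was taken off, the closest genes were Fut10 (0.91), Ptpn4 (0.90), Angel2 (0.89), Tbl2 (0.87) and Sntb1 (0.87), none of them in the first set, and Pdp2 was the closest member at 0.64.

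Markers of several cell types moved in the same contrasts, where 19.7% of all tested genes were called lower and 19.6% higher, then 18.5% higher and 18.8% lower. Of 23 adipocyte markers 17 fell and 0 rose in untreated against WT, and 18 rose and 0 fell in treated against untreated, while of 20 macrophage markers 17 rose and then 19 fell. Of 11 fibroblast and preadipocyte markers 6 rose and 0 fell, then 1 rose and 5 fell, and of 11 T and B cell markers 6 rose and then 3 fell. Without WT 2 and WT 3 the rises in untreated against WT were 2 for fibroblast and preadipocyte markers, 14 for macrophage markers and 5 for T and B cell markers. That fit called 1724 of 16877 tested genes higher. In bulk tissue fewer cells of a type and less RNA per cell cannot be told apart, and the part of cell content in the changes of the pyruvate dehydrogenase genes was not tested. In treated against WT 0 adipocyte and 0 macrophage markers were called by edgeR (6 and 1 at an unadjusted p under 0.05), and DESeq2 called 2 and 0. With 0.257% of all tested genes called there by edgeR, 0 calls say nothing of these lists or of cell content. For skeletal muscle, which is rich in Pdk4, 13 markers summed to 15.5 to 21.1 CPM in treated, 14.1 to 31.8 in untreated and 22 to 85.8 in WT libraries, with Myh4 at 0 counts in every WT library. Acta1, the actin of skeletal muscle, averaged 14 ± 2.81 CPM in treated, 10.4 ± 3.24 in untreated and 38.1 ± 18.4 in WT libraries, and Tnnc2, a fast troponin, 0.318, 0.0719 and 3.4 CPM. Both fell in untreated against WT (-1.87, edgeR adjusted p = 0.00163, and -5.41, edgeR adjusted p = 0.00288). Of the 8 muscle markers tested there, these 2 fell and 3 rose (1 without WT 2 and WT 3), with a list median of -0.04. The rises were Pvalb (4.35, edgeR adjusted p = 0.00526), Tnni2 (2.15, edgeR adjusted p = 0.0153) and Myh2 (1.73, edgeR adjusted p = 0.0143). In treated against WT Acta1 was at -1.45 (edgeR adjusted p = 0.146), and DESeq2 called 2 muscle markers lower where edgeR called 0. Brown adipocyte markers, 10 in number, summed to 47.7 to 94.2 CPM in treated, 59.9 to 64.8 in untreated and 62 to 107 in WT libraries, and Ucp1, the defining one, averaged 0.0654 CPM in treated, 1.88 in untreated and 2.12 in WT libraries and was called lower in treated against WT (-4.88, edgeR adjusted p = 0.0485). That was the 1 call of the list there. It was lost without WT 2 and WT 3 and without the libraries with Foxj1 counts, and DESeq2 called 2. The treated Ucp1 level is close to 0. Of the 9 brown adipocyte markers tested there, 6 lay below 0 and 3 above, with a median of -0.15. Elovl3 was at 1.09 and Ppargc1a at 0.38, both uncalled. In untreated against WT 3 of the 9 fell, and Dio2 (1.12) and Elovl3 (1.37) lay above 0, uncalled. Cidea, a lipid droplet protein also listed among the adipocyte markers, averaged 6.63 ± 1.62 CPM in treated, 6.31 ± 2.44 in untreated and 17.3 ± 4.94 in WT libraries. Cidea fell in untreated against WT (-1.45, edgeR adjusted p = 0.00195) and was at -1.38 in treated against WT (edgeR adjusted p = 0.0817). Acta1, Tnnc2 and Cidea were picked here after their values were seen. The muscle and brown adipocyte sums had their highest median in WT libraries, 42.1 and 92 CPM. The ranges of the brown sum overlapped between all groups, and those of the muscle sum between untreated and WT. Pdk4 was also highest in WT libraries, and the part of muscle or brown fat RNA in its difference was not tested. Without the 4 libraries with Foxj1 counts, Pdk4 in treated against WT was -1.58. That is the contrast that chose Pdk4, so the value is a description only.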

How the data were processed

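Per the labels' protocols, adipose tissue RNA was extracted with TRIzol and RNeasy columns, and libraries came from Illumina's TruSeq Stranded mRNA kit. The authors deposited estimated counts per gene, unscaled, of which 92.96 to 94.17% in each library are whole within 1e-06, and a table of log2 FPKM values whose upper quartile is 3.96 in every library. An offset of 1 was taken off to return these log2 values to FPKM: per-count values of a gene varied least with it (SD 0.0842, against 0.153 for 0.5). The submitters' processing notes name mm10. Aligner, counter, strand setting and annotation: not given in the sources used here. Overlapping antisense genes and close paralogs are therefore uncertain.

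The expected counts, rounded to whole numbers, went into edgeR 4.0.16 under R 4.3.3 (TMM, filterByExpr by group, robust quasi-likelihood test), with all 12 libraries in 1 fit, the group as its only term and Benjamini-Hochberg adjustment over 15968 genes. The threshold was 0.05 and the common biological coefficient of variation 0.29. Members and lists were chosen with earlier results of these data known, so no count over them is independent support. Some genes tied to the complex are not reported here. All members, the partners, 2 called genes per list and the 5 genes most correlated with Pdk4 (mean log2 CPM of at least 1) were to be named; other genes of the lists were named after their values were seen. On simulated counts of 15968 genes the procedure recovered, in untreated Bbs2-/- against WT, 19.4% of genes changed 1.5-fold, 56.7% changed 2-fold and 78.8% changed 4-fold. The shares were 11.9, 44.8 and 66.7% in treated against untreated and 17.9, 40.3 and 83.3% in treated against WT. Each simulation changed 67, 67 and 66 genes at these sizes, while 6263 genes were called in untreated against WT and 5947 in treated against untreated. With fewer changed genes the adjusted p is harder to pass, so the simulated shares do not give the real share missed in those 2 contrasts. A change of the size seen here can still go uncalled. Other runs used DESeq2 1.42.0 as the test or for its scaling only, scaling by library size, no or another filter, 2-group fits, limma 3.58.1, a replicate block, and fewer libraries. The fit without libraries with Foxj1 counts was added after the data were seen. No library repeated another of its group (chi-square divided by its degrees of freedom 16.9 to 84.9).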

Additional observations from a re-analysis of the deposited data

Results flagged for a closer look

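In 7 of 51 groups of 4 libraries screened for the 10 genes and their 7 partners, 1 library stood far from the other 3 by Dixon's test at 95%, which chance gives in about 1 group in 20. Treated 4 was the highest for Pdk2, at 140 CPM, and for Pdk3, at 20.2 CPM. Treated 1 was the lowest for Pdk1, at 33.4 CPM, and WT 3 the highest for it, at 55.7 CPM. Among the partners, WT 1 was the highest for Pdpr, at 27.6 CPM, and the lowest for Mpc1, at 217 CPM, and treated 3 was the lowest for Lipt2, at 3.65 CPM. No group of Pdk4 values met this test.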

How the results depend on the processing

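Of the tested values of single members under alternatives, 587 kept their direction and their side of the threshold, 33 lost a call and 24 changed sign, and the changes of sign were all in uncalled values. The count of genes called in untreated Bbs2-/- against WT, 6263, ran from 4951 to 7212 with 1 library left out and was 3417 without WT 2 and WT 3. The members called there, 8, were 5 with library size alone, 2 without WT 2 and WT 3, and 5 to 8 with 1 library left out. In treated against WT the genes called by edgeR, 41, were 275 with DESeq2, 2 in a fit of the 2 groups, 1 without WT 2 and WT 3, 2 without the libraries with Foxj1 counts, and 3 to 49 with 1 library left out; 1697 had an unadjusted p under 0.05. Scaling by library size alone moved the median log2 fold change of all genes to 0.164 in untreated against WT and -0.097 in treated against untreated, and the share of calls that were higher to 69% (49.9% otherwise), 35.5% (49.6%) and, in treated against WT, 79.6% (68.3%). Per kilobase of merged exons, the untreated shares of Pdk1, Pdk2 and Pdk4 in the kinase sum were 13.1, 33 and 42.9%, and the WT share of Pdk2 was 36.1%. The causes of these moves were not tested, beyond the smaller samples of some fits.

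After group means were taken off, same-numbered treated and untreated libraries correlated by 0.308, 0.116, 0.144 and 0.0999, all positive and 3 of 4 over 0.1, and pairs with WT by -0.149 to 0.278. Not every pair was over 0.1, by a small margin in the first case, so the numbers were not taken to pair the libraries. Treated 2 correlated best with WT 2 (0.278) and, among untreated libraries, with untreated 4 (0.203). With the replicate number as a block, 9 genes were called in treated against WT, the fall of Pdp2 was not called (edgeR adjusted p = 0.062), and no other member's call changed.

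Sign changes in treated against WT, none of them called, were as follows. Without WT 2 and WT 3 the log2 fold change was 0.10 for Pdk1, 0.02 for Pdk2, 0.03 for Pdk3, -0.02 for Pdp1, 0.06 for Pdha1 and 0.09 for Pdhb. Pdk3 was 0.02 with library size alone and 0.09 without the libraries with Foxj1 counts, and Dlat was 0.00 with limma-trend. With 1 library left out, Pdk1 ran from -0.12 to 0.09, Pdk3 from -0.19 to 0.04, Pdha1 from -0.23 to 0.01, Pdhb from -0.29 to 0.00 and Dlat from -0.06 to 0.09. In treated against untreated, Pdp1 was 0.01 with limma-trend and -0.11 to 0.03 with 1 library left out. Single counts cover only sampling: the shallowest member, Pdk3, had at least 180 counts in every library.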
